A study of Rattus norvegicus with 50 samples.

Results

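Fos, Egr1, Arc and Junb are immediate early genes of neurons, and their RNA was followed in the medial prefrontal cortex of rats through postnatal development. The 4 genes were chosen before this account was written, but with earlier results of these data known. They are Ensembl rows ENSRNOG00000008015 (Fos), ENSRNOG00000019422 (Egr1), ENSRNOG00000043465 (Arc) and ENSRNOG00000042838 (Junb), out of 29516 rows in the deposited tables. The tables hold identifiers only. No source used here pairs Ensembl identifiers with symbols, so the pairing of these identifiers with these names could not be checked, and the names are used as given in the rule. All 4 rows were above 0 in every library and passed the filter of a mean of at least 0.5 FPKM (fragments per kilobase of transcript, relative to the depth of a library), as did 14817 rows in all.

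Tissue came from Wistar rats of 2 genotypes, wild-type and serotonin transporter knockout, at postnatal days 8, 14, 21, 35 and 70. The serotonin transporter is the membrane protein that returns serotonin from the extracellular space into the nerve terminal. There were 10 groups with 5 libraries in each, made from total RNA after removal of ribosomal RNA, which gives 50 libraries. Sex, zygosity and the way the knockout was made are not given in the sources used here, nor is it given that the libraries of a group were from separate rats. The p-values therefore measure the spread between these libraries, which may be technical in part. Each library is named here by the pair of numbers in its title, such as 7-2. The labels do not say what the first number stands for. No first number occurs in more than 1 group, and each group holds several.

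An immediate early gene is transcribed within minutes of a strong stimulus from regulators already present in the cell, with no need for new protein. In neurons, calcium entry and kinase cascades act on the factors CREB and SRF, which bind cAMP response elements and serum response elements near the start of such genes. Their RNAs are short-lived, so a level in tissue reflects recent events. Fos and Junb encode subunits of AP-1, a dimeric transcription factor, and Egr1 encodes a zinc finger transcription factor. Arc is not a transcription factor: its protein acts at synapses, where it promotes the internalization of AMPA receptors.

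Promoter windows from RefSeq, assembly GRCr8, running from 250 bases before to 50 bases after the gene start, were matched by symbol for 2 of the 4 genes, Egr1 and Junb. They are shown because the elements named above can be looked for in them. Capitals mark, in Egr1 at chr18:26736828-26737127 on the plus strand, the CArG boxes (the core of a serum response element) and the core TGACG of the cAMP response element, and in Junb at chr19:40080876-40081175 on the plus strand, the same core and a TATA box.
Egr1 promoter: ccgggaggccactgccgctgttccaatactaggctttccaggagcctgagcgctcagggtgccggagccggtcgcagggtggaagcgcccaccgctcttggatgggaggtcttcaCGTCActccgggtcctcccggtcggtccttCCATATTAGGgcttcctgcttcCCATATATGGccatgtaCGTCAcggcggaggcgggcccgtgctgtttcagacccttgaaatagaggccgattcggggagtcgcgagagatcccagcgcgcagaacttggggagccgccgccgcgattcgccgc
Junb promoter: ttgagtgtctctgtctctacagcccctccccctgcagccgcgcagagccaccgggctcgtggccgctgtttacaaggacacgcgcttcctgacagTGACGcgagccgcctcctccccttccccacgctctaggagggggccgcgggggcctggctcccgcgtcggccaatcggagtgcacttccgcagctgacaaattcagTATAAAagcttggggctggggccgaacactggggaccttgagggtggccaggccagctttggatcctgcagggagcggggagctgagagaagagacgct

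Positions are counted from the gene start, with negative numbers before it. The Egr1 window held 2 CArG boxes, with first bases at -105 and -83, a motif found in 1.64% of 33469 windows of this length. It also held TGACG in 2 places on the minus strand, where it reads CGTCA, with first printed bases at -135 and -66. The Junb window held TGACG in 1 place on the plus strand, at -155, and TATAAA at -49. TGACG occurred in 21.2% of all windows and TATAAA in 14.2%. Both strands were searched. The whole cAMP response element TGACGTCA (1.83% of windows), the EGR site GCGNGGGCG (4.98%) and the AP-1 site TGANTCA (7.33%) were matched in neither window. TGACG is part of every whole element, so those 2 motifs overlap. A match is a description of these letters and was not tested as a site.

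The labels state about 29000000 reads per sample. Relative to the median library, the depth recovered from the values ran from 0.397 to 1.42. Total FPKM ran from 330440 to 2141919 per library, the factors used to scale libraries from 0.829 to 1.20, and the number of rows above 0 from 17890 to 20219. On the log2 scale a library correlated with the others of its group at a mean of 0.916 to 0.975. The 4 lowest were wild-type day 14 libraries 20-2 and 21-3, knockout day 8 library 30-5 and knockout day 21 library 17-1, and results are given without them where that changed a call. The row of the serotonin transporter itself, the defining markers of cortical cell types and a list of other activity-regulated genes are known here by symbol alone and were not analysed here, so neither the knockout nor the tissue was checked.

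Within a library, FPKM of 1 row is a whole multiple of what 1 read is worth there, and all 200 values of the 4 genes fell within 0.02 reads of a whole number. Read this way, Fos rested on 18 to 722 reads per library (median 90), Egr1 on 70 to 1583 (median 673), Arc on 19 to 2412 (median 348) and Junb on 88 to 2149 (median 568). Fos and Arc at day 8 thus had the thinnest counts of this account. PCR copies cannot be told from separate molecules in these reads, so the precision these counts give covers counting error only.

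FPKM is scaled by transcript length, so the levels of the 4 genes can be set side by side. Over the 50 libraries Junb had the highest mean level, 16.0 FPKM, followed by Egr1 at 9.01, Arc at 7.04 and Fos at 3.75. The order of the means was the same at each age except day 35, where Arc (13.6 FPKM) and Egr1 (13.3 FPKM) changed places and their ranges overlapped. The plot of FPKM by library shows the course of each gene. In all 4, the lowest mean was at day 8 and the highest at day 35.

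**Figure D1:**
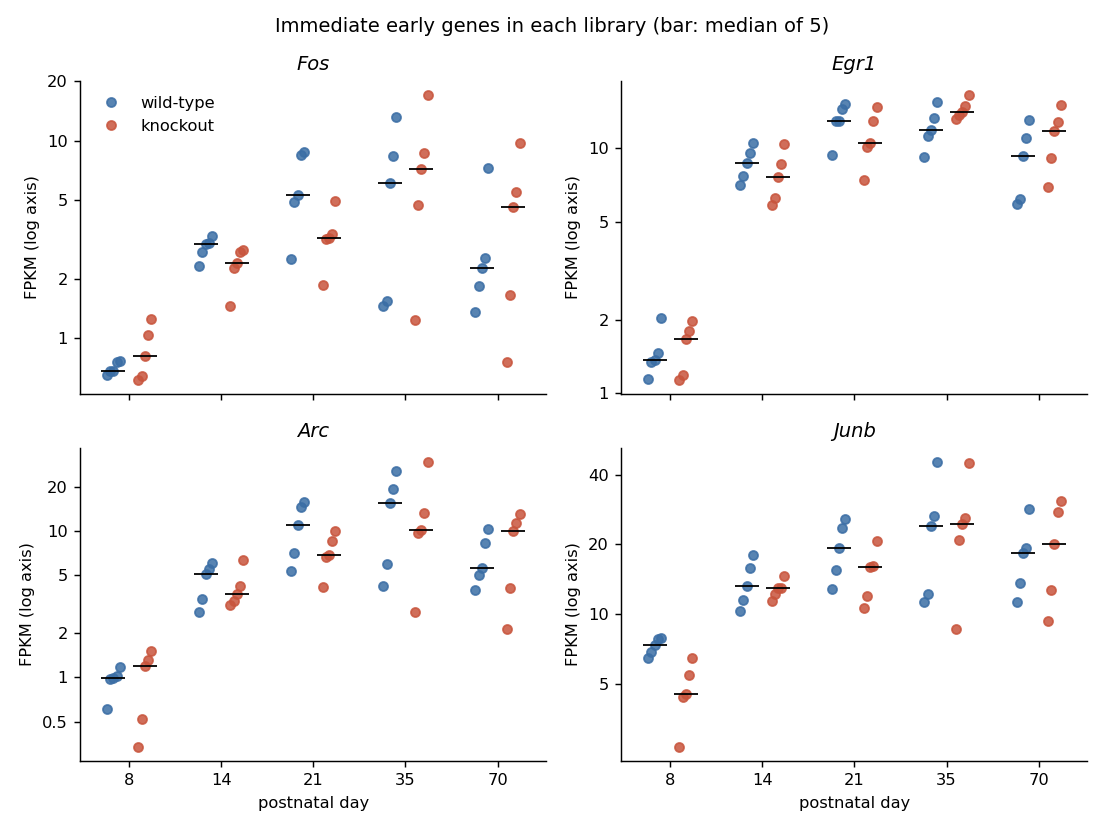
Deposited FPKM (log axis) of Fos, Egr1, Arc and Junb by postnatal day, with 1 point for each library, wild-type in blue and knockout in red, and a bar at the median of the 5 libraries of a group. All 10 libraries of day 14 lie above all 10 of day 8 for each gene, and at days 35 and 70 the points of Fos, Arc and Junb are spread widely.

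Fos encodes the AP-1 subunit most often used to mark recently active neurons. At day 8 its wild-type libraries stood at 0.654, 0.679, 0.681, 0.756 and 0.765 FPKM, and its knockout libraries at 0.617, 0.645, 0.814, 1.04 and 1.25 FPKM. At day 14 the values were 2.33, 2.72, 3.01, 3.05 and 3.29 FPKM in wild-type and 1.46, 2.28, 2.40, 2.75 and 2.78 FPKM in knockout rats. Every day 14 library was above every day 8 library, and at both ages the genotypes overlapped. At day 21 wild-type libraries held 2.50, 4.87, 5.32, 8.44 and 8.79 FPKM and knockout libraries 1.85, 3.18, 3.23, 3.36 and 4.95 FPKM. At day 35 they held 1.45, 1.54, 6.09, 8.34 and 13.2 FPKM in wild-type and 1.24, 4.74, 7.20, 8.71 and 17.0 FPKM in knockout rats. Of the lowest day 35 libraries, knockout 7-3 and wild-type 11-1 were below every library of day 14 and wild-type 8-4 was above its lowest only, while the highest, knockout 7-2 and wild-type 11-4, exceeded every library of every other age. At day 70 the values were 1.35, 1.84, 2.26, 2.55 and 7.26 FPKM in wild-type and 0.757, 1.66, 4.63, 5.49 and 9.77 FPKM in knockout rats. One knockout library of day 70, 5-3, lay within the range of day 8. By mean of the 10 libraries of an age, the order was day 35 (6.95 ± 5.19 FPKM, SD), day 21 (4.65 ± 2.37), day 70 (3.76 ± 2.96), day 14 (2.61 ± 0.520) and day 8 (0.790 ± 0.203), and all neighbours in that order except days 14 and 8 overlapped.

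Egr1, whose RNA is induced by synaptic activity in cortex, had a course with less scatter. At day 8 its wild-type libraries stood at 1.14, 1.34, 1.37, 1.46 and 2.02 FPKM, and its knockout libraries at 1.14, 1.19, 1.66, 1.79 and 1.96 FPKM. At day 14 the values were 7.05, 7.67, 8.68, 9.55 and 10.4 FPKM in wild-type and 5.88, 6.22, 7.62, 8.63 and 10.3 FPKM in knockout rats. The lowest day 14 library was well above the highest of day 8, and the genotypes overlapped at both ages. At day 21 wild-type libraries held 9.37, 12.9, 12.9, 14.3 and 15.1 FPKM and knockout libraries 7.41, 10.1, 10.5, 12.9 and 14.7 FPKM. At day 35 they held 9.17, 11.2, 11.8, 13.3 and 15.3 FPKM in wild-type and 13.1, 13.6, 14.0, 14.8 and 16.4 FPKM in knockout rats. The day 35 knockout libraries were the tightest Egr1 group, with the highest 1.25 times the lowest, and 3 of the 5 wild-type libraries lay below all of them. At day 70 the values were 5.89, 6.16, 9.23, 11.0 and 13.0 FPKM in wild-type and 6.95, 9.11, 11.7, 12.7 and 14.9 FPKM in knockout rats. The order of the means was day 35 (13.3 ± 2.11 FPKM), day 21 (12.0 ± 2.55), day 70 (10.1 ± 3.10), day 14 (8.21 ± 1.60) and day 8 (1.51 ± 0.333), and again only day 8 stood clear of its neighbour.

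Arc RNA, which travels to dendrites and is translated near active synapses, had the largest ratio of highest to lowest library of the 4 genes. At day 8 its wild-type libraries stood at 0.606, 0.981, 0.985, 1.02 and 1.17 FPKM, and its knockout libraries at 0.337, 0.519, 1.19, 1.32 and 1.51 FPKM. At day 14 the values were 2.80, 3.43, 5.06, 5.48 and 6.08 FPKM in wild-type and 3.11, 3.32, 3.71, 4.22 and 6.37 FPKM in knockout rats. These 2 ages did not overlap, and within each age the genotypes did. At day 21 wild-type libraries held 5.31, 7.11, 10.9, 14.5 and 15.6 FPKM and knockout libraries 4.16, 6.58, 6.89, 8.46 and 9.96 FPKM. At day 35 they held 4.20, 5.90, 15.4, 19.4 and 25.5 FPKM in wild-type and 2.78, 9.63, 10.2, 13.3 and 29.4 FPKM in knockout rats. The highest were knockout 7-2 and wild-type 11-4 and the lowest knockout 7-3 and wild-type 11-1, which are the libraries at the ends of the Fos range. At day 70 the values were 3.93, 4.99, 5.57, 8.30 and 10.3 FPKM in wild-type and 2.15, 4.09, 9.91, 11.2 and 13.1 FPKM in knockout rats. The order of the means was day 35 (13.6 ± 8.96 FPKM), day 21 (8.94 ± 3.79), day 70 (7.35 ± 3.68), day 14 (4.36 ± 1.30) and day 8 (0.963 ± 0.371), with overlap between all neighbours but the last pair.

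Junb encodes a partner of Fos in AP-1 dimers. At day 8 its wild-type libraries stood at 6.49, 6.83, 7.35, 7.81 and 7.90 FPKM, and its knockout libraries at 2.68, 4.36, 4.50, 5.47 and 6.48 FPKM. Here the genotypes did not overlap, although the highest knockout and the lowest wild-type library nearly met. At day 14 the values were 10.3, 11.5, 13.3, 15.8 and 17.9 FPKM in wild-type and 11.4, 12.2, 13.0, 13.0 and 14.7 FPKM in knockout rats. At day 21 wild-type libraries held 12.8, 15.5, 19.2, 23.7 and 25.8 FPKM and knockout libraries 10.6, 12.0, 15.9, 16.2 and 20.8 FPKM. The genotypes overlapped at both ages, and all of these libraries were above those of day 8. At day 35 they held 11.3, 12.2, 24.1, 26.6 and 45.3 FPKM in wild-type and 8.64, 20.9, 24.6, 26.0 and 44.9 FPKM in knockout rats. At day 70 the values were 11.3, 13.6, 18.4, 19.3 and 28.3 FPKM in wild-type and 9.35, 12.7, 20.2, 27.6 and 30.7 FPKM in knockout rats. The order of the means differed from that of the other genes in 1 place, with day 35 (24.5 ± 12.7 FPKM) followed by day 70 (19.2 ± 7.61), day 21 (17.3 ± 5.04), day 14 (13.3 ± 2.28) and day 8 (5.99 ± 1.70). All neighbours overlapped except days 14 and 8.

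The first comparison was of ages. All 4 genes rose between days 8 and 14 when the genotypes were averaged. The changes are given as differences of log2(scaled FPKM + 0.5) with their standard errors, from a linear model of all 10 groups in limma with Benjamini-Hochberg adjustment over all 14817 rows, and a row is called at an adjusted p under 0.05. Egr1 rose by 2.12 ± 0.14 (limma adjusted p = 5.03e-17), Arc by 1.74 ± 0.29 (limma adjusted p = 2.76e-06), Fos by 1.27 ± 0.32 (limma adjusted p = 0.00115) and Junb by 1.16 ± 0.20 (limma adjusted p = 4.09e-06). These are rises of 4.36, 3.35, 2.41 and 2.23-fold on a scale that understates the change of low values. Of all rows tested, 47.7% were called in this interval and 24.0% rose, with a median change of -0.01. On scaled values all 10 libraries of day 14 were above all 10 of day 8 for each of the 4 genes, which held for 6.61% of rows. In tissue, more cells that express a gene and more RNA per cell cannot be told apart.

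Between days 14 and 21, 2 of the 4 genes rose, where 17.3% of all rows did. Egr1 rose by 0.58 ± 0.14 (limma adjusted p = 0.000856) and Arc by 0.97 ± 0.29 (limma adjusted p = 0.00781). Fos, at 0.68 ± 0.32 (limma adjusted p = 0.101), and Junb, at 0.39 ± 0.20 (limma adjusted p = 0.122), were not called. With a fit of the groups compared only, both were called, with limma adjusted p of 0.00843 for Fos and 0.026 for Junb. The share of all rows called in that fit is not given here.

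After day 21 no change between consecutive ages was called. From day 21 to 35, 0 of the 4 genes were called in limma (0 at an unadjusted p under 0.05), against 12.3% of all rows, with estimates of 0.26 for Fos, 0.14 for Egr1, 0.36 for Arc and 0.35 for Junb. From day 35 to 70, 0 of the 4 were called in limma, against 2.73% of all rows. An unadjusted limma p under 0.05 was found for 3 of the 4 genes and for 2362 of the 14817 rows. All 4 estimates lay below 0 here, at -0.69 ± 0.32 for Fos, -0.39 ± 0.14 for Egr1, -0.66 ± 0.29 for Arc and -0.23 ± 0.20 for Junb, with limma adjusted p from 0.131 to 0.622. With array weights, which give less weight to libraries that lie far from their group, Fos, Egr1 and Arc were called lower at day 70 than at day 35. The share of all rows called with array weights is not given here, so these calls cannot be set against it.

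Over the whole span from day 8 to 70, all 4 genes rose, as did 33% of all rows. Egr1 rose by 2.46 ± 0.14 (limma adjusted p = 4.87e-20), Arc by 2.40 ± 0.29 (limma adjusted p = 1.15e-09), Junb by 1.68 ± 0.20 (limma adjusted p = 5.39e-10) and Fos by 1.52 ± 0.32 (limma adjusted p = 6.87e-05). For Egr1, Arc and Junb all day 70 libraries were above all day 8 libraries on scaled values, which held for 15.7% of rows, and for Fos they overlapped.

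The course was also fitted in each genotype alone. Over the 5 ages, an F test called all 4 genes in wild-type rats, where 59.2% of rows were called, and all 4 in knockout rats, where 62.5% were. In wild-type rats all 4 rose from day 8 to 14 (17.4% of rows rose), by 1.47 ± 0.46 for Fos, 2.23 ± 0.20 for Egr1, 1.76 ± 0.41 for Arc and 0.88 ± 0.28 for Junb, with limma adjusted p of 0.0123 or less. Without the 4 libraries that correlated least with their groups, the Fos change was 1.41 and its call was lost (limma adjusted p = 0.0527). In knockout rats 3 of the 4 rose in that interval (18.6% of rows rose). Egr1 rose by 2.02 ± 0.20, Arc by 1.72 ± 0.41 and Junb by 1.44 ± 0.28, with limma adjusted p of 0.000821 or less. Fos was at 1.07 ± 0.46 (limma adjusted p = 0.065), and its adjusted p ran from 0.000912 to 0.121 over the alternatives tried.

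From day 14 to 21 Egr1 (0.64 ± 0.20, limma adjusted p = 0.0163) and Arc (1.17 ± 0.41, limma adjusted p = 0.0368) rose in wild-type rats, where 10.3% of rows rose. Both calls lay near the threshold. The Arc call was lost without any 1 of wild-type day 14 libraries 20-4 and 21-3 or day 21 libraries 14-3, 15-2 and 15-3 (limma adjusted p of 0.0685 to 0.109), with changes that stayed between 1.00 and 1.14. The Egr1 call was lost without day 14 library 20-2 or day 21 library 15-3 (limma adjusted p of 0.0644 and 0.0536), with changes of 0.53 and 0.56. In knockout rats 0 of the 4 genes were called (10.6% of rows rose), with Egr1 at 0.53 ± 0.20 (limma adjusted p = 0.0508). An unadjusted limma p under 0.05 was found for 1 gene and for 4690 of the 14817 rows. Egr1 was called without knockout day 14 library 24-2 (limma adjusted p = 0.0204) or day 21 library 18-1 (limma adjusted p = 0.0149). The share of all rows called without either library is not given here. From day 21 to 35 none of the 4 genes was called in wild-type (3.87% of rows were) or in knockout rats (4.49%), nor from day 35 to 70 (0.337% and 0.304%). At an unadjusted p under 0.05, 1 of these 16 limma tests passed, that of Egr1 in wild-type rats from day 35 to 70. In that comparison 1045 of the 14817 rows passed in the same way. From day 8 to 70 all 4 rose in wild-type (27.7% of rows rose) and in knockout rats (29% rose). That a change was called in one genotype and not in the other does not show that they differ. The difference itself, tested as an interaction in each of 4 intervals for each of 4 genes, was called in 0 of 16 tests in limma (0 at an unadjusted p under 0.05, smallest adjusted p 0.757), and 0% of all rows were called in any of these intervals.

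The second comparison, of genotypes at each age, is the one stated in the series' design. No difference was called for any of the 4 genes at any age, in 0 of 20 limma tests, with 0 at an unadjusted p under 0.05 and a smallest adjusted p of 0.564. Few rows of the whole table were called either: 0.263% at day 8, 0.00675% at day 14 and 0% at days 21, 35 and 70. The plot of genotype differences gives each estimate with its 95% interval. Knockout rats could not be shown to differ from wild-type rats in these genes, and the intervals are wide enough to hold differences of 2-fold for Fos at every age. Each interval rests on 1 estimate of spread for all 10 groups of a gene. The SD of Fos within a group ran from 0.0627 in wild-type day 8 to 1.18 in wild-type day 35. Its interval is thus wider than the day 8 libraries alone would give, and narrower than those of day 35 would.

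**Figure D2:**
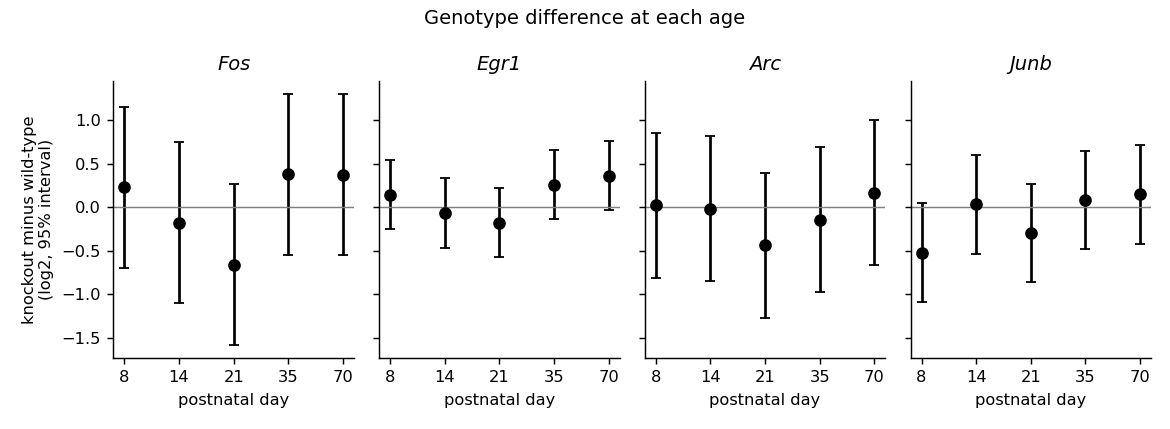
Knockout minus wild-type difference in log2(scaled FPKM + 0.5) for each gene and postnatal day, as a point with its 95% interval from limma (5 libraries per genotype and age), with a grey line at 0. All 20 intervals hold 0, the narrowest being those of Egr1 and the widest those of Fos. The width is the same at all ages of a gene because its 10 groups share 1 estimate of spread.

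Junb at day 8 had the smallest p of the 20. Its difference was -0.52 ± 0.28 (95% interval -1.09 to 0.04, limma adjusted p = 0.564), or 1.44-fold lower on this scale in knockout rats. This standard error rests on the spread of all 10 groups. The Junb SD at day 8 was 0.110 in wild-type and 0.315 in knockout rats, against 0.706 and 0.746 at day 35. The interval is therefore wider than the day 8 libraries alone would give. All 5 knockout libraries lay below all 5 wild-type libraries, which was so for 0.553% of rows at this age. Deposited means were 4.70 ± 1.41 FPKM in knockout and 7.28 ± 0.610 FPKM in wild-type rats (SD, n = 5). The lowest knockout value, 2.68 FPKM, came from library 30-5, one of the 4 that correlated least with their groups, and without those 4 the difference was -0.40. Over all alternatives, a fit of the day 8 groups alone among them, its adjusted p ran from 0.307 to 0.995. At the other ages the Junb difference lay between -0.30 and 0.15.

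The Fos differences in order of age were 0.23, -0.18, -0.66, 0.38 and 0.37, each ± 0.46. At day 21, where the estimate was lowest, 3 wild-type libraries were above all knockout libraries, and the 95% interval ran from -1.58 to 0.26. Arc had the same sign at day 21 (-0.43 ± 0.41) and values between -0.14 and 0.17 at the other ages. All 4 estimates were below 0 at day 21 and above 0 at day 70, but the 4 genes vary together between libraries, so their signs are not independent of each other.

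Egr1 differences were 0.14 ± 0.20, -0.07 ± 0.20, -0.18 ± 0.20, 0.26 ± 0.20 and 0.36 ± 0.20 at days 8, 14, 21, 35 and 70. At day 35 all knockout libraries were above all wild-type libraries once scaled, which held for 0.128% of rows, while in deposited FPKM they overlapped. Neither that difference nor the one at day 70 was called. Averaged over the 5 ages, the difference was 0.03 ± 0.20 for Fos, 0.10 ± 0.09 for Egr1, -0.08 ± 0.18 for Arc and -0.11 ± 0.13 for Junb, and 0 of 4 were called in limma (0 at an unadjusted p under 0.05, smallest adjusted p 0.949), against 0.0337% of rows. An F test of whether the difference depended on age called 0 of 4 (0 at an unadjusted p under 0.05), against 0.00675% of rows.

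The third question was whether the genes varied together between libraries of the same group. For this each value was taken as its deviation from its group mean of log2(scaled FPKM + 0.5), which removes genotype and age, and the deviations of 2 genes were correlated over the 50 libraries. Fos, Arc and Junb moved together closely. The correlation was 0.914 for Fos and Arc (Spearman's rho 0.860), 0.892 for Fos and Junb (rho 0.761) and 0.885 for Arc and Junb (rho 0.799). Each had a p of 1e-05, the smallest that 100000 permutations of libraries within groups can give, or 2e-05 adjusted over the 6 pairs of genes, for r and for rho. Without the 2 libraries farthest from the median of the first gene these values of r were 0.883, 0.857 and 0.844. The deviations had the same sign in 40, 35 and 37 of the 50 libraries, in that order.

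Egr1 moved with the other genes less closely. Its correlation was 0.474 with Fos (rho 0.516, permutation adjusted p = 0.000165 for r and 0.0003 for rho) and 0.434 with Arc (rho 0.431, permutation adjusted p = 0.000912 and 0.00383). With Junb it was 0.271 (rho 0.205), with a permutation adjusted p of 0.049 for r and 0.175 for rho. Without the 2 farthest libraries r was 0.481, 0.405 and 0.237. The relation of Egr1 and Junb therefore passed the threshold for r only, and it was lost when any 1 of 20 libraries was left out. The permutation adjusted p was then 0.0504 to 0.114. It came from fewer permutations than the main test, so losses close to the threshold are less firm. With the deviations of each gene standardized to the same variance, the first principal component of the 4 genes held 75.6% of the variance.

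**Figure D3:**
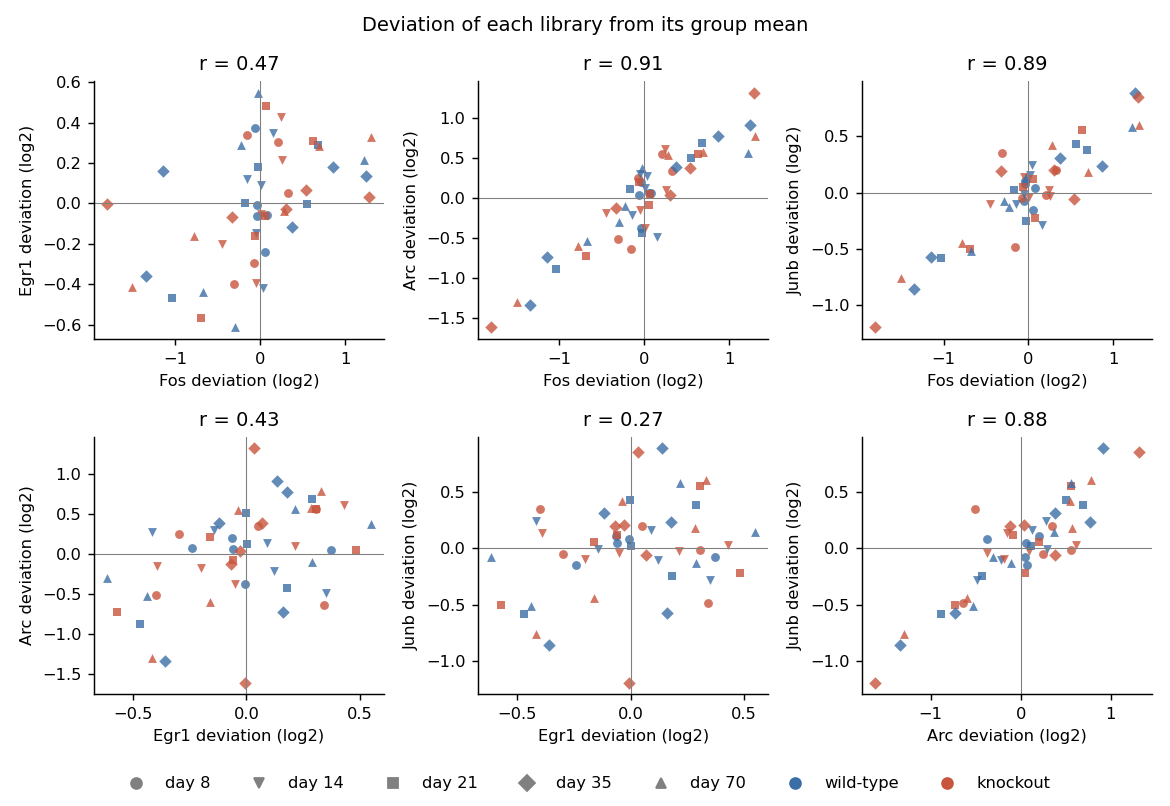
Deviation of each of the 50 libraries from its group mean, in log2 units, for the 6 pairs of genes, with marker shape for postnatal day and colour for genotype (wild-type blue, knockout red). The points of Fos, Arc and Junb lie along a line (r 0.88 to 0.91), and those of pairs with Egr1 are scattered (r 0.27 to 0.47).

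The same measure was taken for every other row to set these values in scale. Among the 14816 other rows tested, the one most correlated with Fos was Arc, and Junb had rank 3. For Arc, Fos had rank 1 and Junb rank 3, and for Junb, Fos had rank 1 and Arc rank 2. The median correlation of Fos with all rows was 0.01 and the 99th percentile 0.455. For Arc and Junb the 99th percentiles were 0.523 and 0.585. Egr1 stood at rank 106 for Fos, 819 for Arc and 3277 for Junb. Its r with Arc (0.434) and Junb (0.271) lay below the 95th percentiles of those genes, 0.441 and 0.496. In the other direction, for Egr1, Fos had rank 52, Arc rank 103 and Junb rank 1198, and the 99th percentile was 0.414. Rows share their library, its depth and its composition, so a correlation across rows is a description here.

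By age, the correlations of Fos, Arc and Junb differed in size. At day 21 they were 0.931 for Fos and Arc, 0.924 for Fos and Junb and 0.940 for Arc and Junb, at day 35 0.984, 0.947 and 0.953, and at day 70 0.942, 0.955 and 0.958 (n = 10 libraries each, permutation adjusted p of 0.00367 or less over 42 relations). Spearman's rho for the same pairs and ages lay between 0.818 and 0.988 (permutation adjusted p of 0.0309 or less). At day 8 the values of r were 0.771, 0.0702 and 0.203, and at day 14 0.336, 0.0712 and 0.582, and none of these passed the threshold (smallest permutation adjusted p 0.14). Those of rho were 0.733, 0.164 and 0.152 at day 8, and 0.248, 0.236 and 0.745 at day 14. None of these passed either, the smallest permutation adjusted p being 0.0781, for Arc and Junb at day 14. The differences between ages were not tested. Spread was smaller at days 8 and 14, with group SDs of 0.0627 to 0.288 for Fos and 0.0885 to 0.315 for Junb. From day 21 on these ran from 0.470 to 1.18 and from 0.394 to 0.746. For Arc the SDs of earlier and later ages overlapped. Whether the spread bears on these correlations was not tested. Without the 2 farthest libraries the values at days 21, 35 and 70 lay between 0.810 and 0.970.

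Pairs with Egr1 were mixed. Egr1 and Fos correlated at 0.777 at day 21 (permutation adjusted p = 0.0199), with a rho of 0.745 (permutation adjusted p = 0.0309). Without the 2 farthest libraries r was 0.376, so its size rested on those 2, while the rank measure passed over all 10. Egr1 and Arc correlated at 0.732 at day 70 (permutation adjusted p = 0.0211), with a rho of 0.661 (permutation adjusted p = 0.0424), and at 0.774 without the 2 farthest. No other pair with Egr1 passed at a single age, and Egr1 and Junb had values of -0.523 at day 8 and -0.562 at day 14, with permutation adjusted p of 0.303 and 0.15. Without the 2 farthest libraries these were -0.178 and -0.158. Over all 10 libraries the rho was -0.394 and -0.442 (permutation adjusted p = 0.404 and 0.315). Within genotypes over all ages, Fos, Arc and Junb correlated at 0.891 to 0.928 in wild-type and at 0.854 to 0.932 in knockout rats (n = 25 each). Of the 6 pairs, 3 passed in wild-type and 5 in knockout rats, and the difference between genotypes was not tested.

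Single libraries show what this means. In knockout rats at day 35, library 7-2 was highest for Fos, Arc and Junb (17.0, 29.4 and 44.9 FPKM) and library 7-3 was lowest (1.24, 2.78 and 8.64 FPKM). Their Egr1 values were 16.4 and 13.1 FPKM as deposited, and 0.03 and -0.01 log2 units from the group mean once scaled. At day 70 the lowest knockout library, 5-3, was lowest for all 4 genes, and library 1-2 was highest for all 4. In wild-type rats library 11-1 was lowest for all 4 at day 35, and 11-4 was highest for Fos, Arc and Junb. Library 14-1 was likewise lowest for all 4 in the wild-type group of day 21, as was 18-1 in the knockout group of that age.

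**Figure D4:**
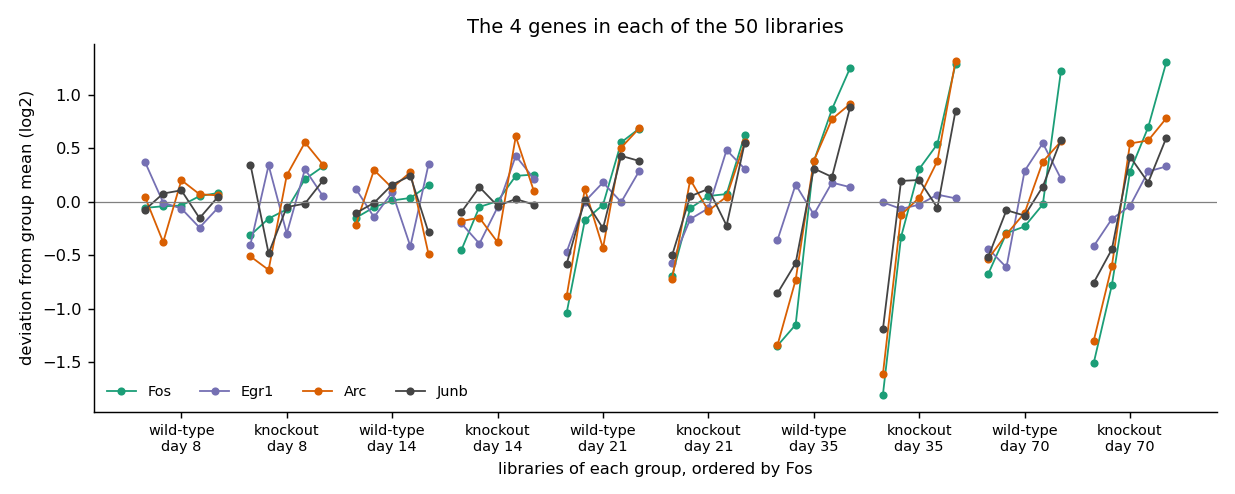
Deviation from the group mean in log2 units of Fos, Egr1, Arc and Junb in each of the 50 libraries, grouped by genotype and postnatal day and ordered within a group by Fos. The lines of Fos, Arc and Junb run together from day 21 on, while Egr1 stays near 0 in the knockout group of day 35.

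Counted over the groups, 1 library was highest for Fos, Arc and Junb at once in 5 of 10 groups, and 1 was lowest for all 3 in 6 of 10. All 4 genes were above their group mean in 11 libraries, 3 in 12, 2 in 6, 1 in 12 and none in 9. Libraries that share a first title number could differ widely. The pairs 7-2 and 7-3, and 11-1 and 11-4, were at opposite ends of their groups for Fos, and so were 14-1 and 14-3 for Junb. First numbers accounted for 32.8% of the within-group variance of Fos, 61.6% of that of Egr1, 32.2% of that of Arc and 29.2% of that of Junb, where they take 20 of its 40 degrees of freedom.

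In all, 4 properties of a library were set beside the mean of the standardized deviations of the 4 genes, as a description over 50 libraries. Its correlation was 0.001 with relative depth, 0.224 with total FPKM, 0.359 with the scale factor and 0.202 with the mean correlation with the group (rho 0.002, 0.197, 0.209 and 0.156). For the scale factor the permutation p of r was 0.0454, or 0.181 adjusted over the 4 properties. Its r was 0.325 without the 2 farthest libraries. With total FPKM as a linear term in the deviations, the call was lost for 1 of the 6 pairs of genes, Egr1 and Junb (0.248). No such term was fitted for the scale factor.

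By the rule for rows that vary most like the 4 genes, ENSRNOG00000007607 (mean 3.67 FPKM) had the highest correlation with the mean of their deviations, 0.879, and ENSRNOG00000003300 (mean 5.12 FPKM) the next, 0.866. The lowest were ENSRNOG00000004720 at -0.557 and ENSRNOG00000019624 at -0.542. The measure is Pearson's r over 50 libraries among 13245 other rows with a mean of at least 1 FPKM.

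The spread between libraries of one group was large for 3 of the 4 genes. Pooled over the 10 groups, the SD in log2 units was 0.736 for Fos, 0.662 for Arc, 0.453 for Junb and 0.319 for Egr1, where the median row had 0.197. Of all rows tested, 93.2% had a smaller spread than Fos, 92.3% than Arc, 88.7% than Junb and 80.9% than Egr1. Counting error at the recovered numbers of reads would give an SD of 0.127 for Fos, 0.0766 for Arc, 0.0635 for Junb and 0.0644 for Egr1, or 3.00%, 1.34%, 1.97% and 4.08% of the variance between libraries. These shares are pooled over all groups and do not hold for each age. In wild-type rats at day 8 the Fos SD was 0.0627, on 25 to 32 reads, which is below its pooled counting SD. Shares by group were not computed.

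The spread was not the same at all ages. For Fos the SD was 0.0627 in wild-type and 0.265 in knockout rats at day 8, 1.18 and 1.16 at day 35, and 0.722 and 1.13 at day 70. In the knockout group of day 35 the highest library exceeded the lowest 13.7-fold for Fos, 10.6-fold for Arc and 5.20-fold for Junb. Arc had SDs of 0.220 and 0.537 at day 8 and of 0.988 and 1.06 at day 35, in wild-type and knockout rats. Junb had SDs of 0.110 and 0.315 at day 8 and of 0.706 and 0.746 at day 35. Egr1 went the other way at day 35 in knockout rats, with an SD of 0.0516, where 1.23% of rows had a smaller one, and of 0.234 in wild-type rats. The median row had SDs of 0.148 and 0.232 at day 8 and of 0.172 and 0.203 at day 35, in wild-type and knockout rats. These SDs rest on 5 libraries each and the differences between ages were not tested. A pseudocount of 0.5 compresses the spread of low values, which touches Fos and Arc at day 8 most.

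**Figure D5:**
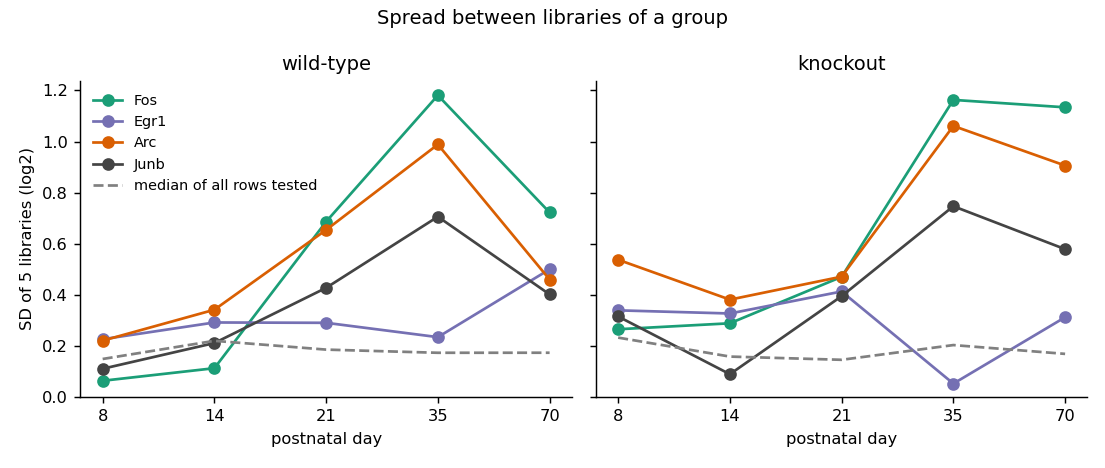
SD of the 5 libraries of each group in log2 units by postnatal day, for Fos, Egr1, Arc and Junb and, as a dashed line, for the median of all rows tested, in wild-type (left) and knockout rats (right). Fos, Arc and Junb reach their highest SD at day 35 in both genotypes, and Egr1 does not.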

How the data were processed

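RNA from rat medial prefrontal cortex was sequenced in 50 libraries (10 groups of 5) as 50 bp single-end reads after 10 cycles of PCR, per the labels' protocols. The values deposited by the authors are FPKM, in 1 table per genotype. The labels' protocols name gsnap and the rn4 assembly, and the submitters' processing notes name BWA 0.6.1, bedtools, Cufflinks and rn4, so the aligner is not settled. The annotation release and any use of strand are not given in the sources used here, so overlapping antisense reads may be included. All columns were matched to samples by title (0 unmatched). No replicate number is shared between groups, so none pairs samples.

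Libraries were scaled by the median, over 15296 rows, of the ratio of a value to the row's geometric mean. Values were tested as log2(FPKM + 0.5) in the 14817 rows with a mean of at least 0.5 FPKM, by a 10-group fit in limma 3.58.1 (R 4.3.3) with trend and robust variance and 40 residual degrees of freedom. Adjustment was by Benjamini-Hochberg over all rows of a comparison, with a threshold of 0.05. The pseudocount shrinks the fold change of rows with low values. Deviations from group means were correlated in Python 3.11.15 with numpy 2.4.6 and scipy 1.17.1, with 100000 two-sided permutations of libraries within groups, adjusted over the 6 pairs or, in subsets of libraries, over 42 relations. Fewer permutations were used where 1 library was left out. The scripts were tested on simulated data.

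What 1 read was worth in each library was found from 4202 rows seen in 3 to 25 libraries. Of the symbols, 4 of 4 occurred in the RefSeq table of GRCr8, which lists 0 Ensembl identifiers. The genes and lists were chosen with earlier results of these data known. The rule for further rows was the 2 highest and 2 lowest correlations with the mean of the members' deviations. Alternatives covered scaling, pseudocount, filter, fit, weights, the first title number and each library left out. Leaving out the 4 libraries least correlated with their groups was chosen after seeing the data. Figures used matplotlib 3.10.9.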

Additional observations from a re-analysis of the deposited data

Results flagged for a closer look

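Arc in the wild-type group of day 8 had 1 library, 27-2, that lay apart from the other 4. It stood at 0.606 FPKM (48 reads), while the others lay between 0.981 and 1.17 FPKM, and on the log2 scale of scaled values its gap to the nearest was 0.728 of the range of the group, above Dixon's value of 0.71 for 5 libraries. It was not the lowest library of its group for Fos, Egr1 or Junb. It was 1 of 40 groups of 5 libraries examined, where chance flags about 1 in 20.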

How the results depend on the processing

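Of the alternatives tried, the calls of the age changes averaged over genotypes from day 8 to 14 and from day 8 to 70, and of the 5 pairs of genes other than Egr1 and Junb, kept their direction and their side of the threshold in all. No genotype difference was called under any alternative (smallest limma adjusted p 0.307 at single ages and 0.526 over ages), and no dependence of it on age (0.716). Uncalled genotype differences near 0 changed sign. With values as deposited that of Arc at day 8 was -0.0448, that of Junb at day 14 -0.0758 and that of Fos over ages -0.0245. With a pseudocount of 0.1 Arc at day 8 was -0.0138. With libraries averaged by first title number the Arc differences of days 8, 14 and 35 were -0.0716, 0.0792 and 0.0418. Leaving out 1 library at a time, the lowest and highest Arc differences were -0.118 and 0.180 for day 8, -0.170 and 0.0775 for day 14, -0.478 and 0.260 for day 35, and -0.0299 and 0.490 for day 70. Those of Junb were -0.0403 and 0.0917 for day 14, -0.131 and 0.381 for day 35, and -0.00161 and 0.337 for day 70, those of Egr1 for day 14 -0.175 and 0.0302, and those of Fos over ages -0.0395 and 0.118. Uncalled age changes that changed sign this way ran, in wild-type rats from day 21 to 35, from -0.571 to 0.0775 for Fos, -0.193 to 0.0140 for Egr1, -0.0136 to 0.550 for Arc and -0.0560 to 0.379 for Junb, and in knockout rats from day 35 to 70, from -0.492 to 0.0191 for Junb. The wild-type rise of Arc from day 14 to 21 lost its call with values as deposited (1.08), no filter (1.17), a random effect of first title number (1.18) and without the 4 least correlated libraries (1.10), and ran from 1.00 to 1.40 with 1 library left out. That of Egr1 lost it when averaged by first title number (0.57) and without the 4 (0.61), and ran from 0.53 to 0.75. That of Fos from day 8 to 14 lost it without the 4 (1.41). In knockout rats Fos from day 8 to 14 was called with a pseudocount of 0.1 (1.36), the groups compared only (1.07) and averaging (1.16), and Egr1 from day 14 to 21 with a pseudocount of 1 (0.50), a mean of at least 1 FPKM (0.53) and array weights (0.61), and ran from 0.40 to 0.67 with 1 library left out. With array weights, changes were also called from day 14 to 21 for Fos (1.13) and Junb (0.69) in wild-type rats and in both genotypes (0.81 and 0.46), and from day 35 to 70 in both genotypes for Fos (-0.97), Egr1 (-0.44) and Arc (-0.88). With the groups compared only, Fos (0.68) and Junb (0.39) were called in both genotypes from day 14 to 21. The correlation of Egr1 and Junb lost its call with quantile normalization (0.269), a pseudocount of 0.1 (0.246), averaging (0.202), library total as a term (0.248) and without the 2 farthest libraries (0.237), and ran from 0.219 to 0.318 with 1 library left out. The causes were not tested. Shares of all rows called under the alternatives are not given here, so a call gained there cannot be set against them. No paired analysis was possible because the groups share no replicate numbers. Depth limits Fos and Arc at day 8 most, with 18 and 19 reads in the thinnest libraries.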
